A study of Mus musculus with 6 samples.

Results

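The genes of cholesterol synthesis, sterol sensing, intracellular sterol transport and efflux were examined in blasts of mice with acute myeloid leukemia. The set held 28 named genes of the known pathway, out of 53458 genes with a GENCODE M21 identifier. It was chosen with earlier results of these data known. Blasts carried either the G643W change in both copies of Asxl1 (Cebpa-/p30; Asxl1G643W/G643W, 3 libraries) or wild-type Asxl1 (Cebpa-/p30; Asxl1WT, 3 libraries). Asxl1 encodes a chromatin regulator, and both groups shared the Cebpa-/p30 genotype, in which the myeloid transcription factor C/EBPα is made only in its short p30 form. The cells came from bone marrow of transplanted C57/BL6 mice and were sorted as CD45.2-positive, with low Mac1 and Gr1 and no Ter119, B220 or CD3. The labels give neither ages nor the number of primary leukemias behind the libraries, so p-values measure only the spread between these libraries, which may in part be technical.

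Cells build cholesterol from acetyl-CoA through mevalonate, farnesyl diphosphate, squalene and lanosterol. When membrane sterol is low, Scap escorts the SREBP factors, encoded by Srebf1 and Srebf2, out of the endoplasmic reticulum, and their cleaved forms switch on the enzymes; Insig proteins hold Scap back when sterol is plentiful. When sterol is in excess, oxysterols activate the nuclear receptors LXRα and LXRβ, encoded by Nr1h3 and Nr1h2, which switch on the exporters Abca1 and Abcg1. In the myeloid lineage the export arm is best known from macrophages.

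Libraries held 61167075, 101189225 and 76981758 estimated reads in G643W and 72664292, 69885969 and 76060388 in WT. The sort was checked against markers. Levels are in TPM, reads divided by transcript length and scaled to a fixed total. The 8 T cell genes summed to 2.60 to 12.7 TPM in G643W and 1.58 to 10.96 TPM in WT. Cd4 was the largest part in every library but WT library 2. It had 1.58, 8.05 and 8.67 TPM in G643W and 1.73, 0.0604 and 7.18 TPM in WT. In CPM the groups of Cd4 did not overlap, at 6.30 to 11.1 in G643W and 0.241 to 6.10 in WT. Of the CD3 chains Cd3e was at most 0.219 TPM in any library, while Cd3d reached 2.91 TPM in G643W and 3.09 TPM in WT. The 8 B cell genes summed to 9.68 to 27.9 TPM in G643W and 14.8 to 18.3 TPM in WT, mostly from Cd79b. The 10 red cell genes summed to 18.6 to 51.3 TPM in G643W and 1.81 to 12.5 TPM in WT, without overlap. Myeloid progenitor genes were present but uneven, with Mpo between 173 and 2181 TPM in G643W and between 244 and 1609 TPM in WT. Neutrophil genes were uneven too, and Ly6g, which encodes part of the Gr1 antigen, had 10.8, 697 and 245 TPM in G643W and 6.14, 26.8 and 294 TPM in WT. Asxl1 itself had 103, 164 and 147 CPM in G643W and 86.5, 54.5 and 73.8 CPM in WT (edgeR adjusted p = 0.454), and a gene total does not show the G643W change.

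Sterol exporters lay lower and several synthesis enzymes higher in G643W blasts, but none of the 28 genes passed the test over all genes (edgeR, Benjamini-Hochberg adjusted p under 0.05; lowest adjusted p 0.409). The same test called 0.121% of the 20654 genes tested. All 28 genes passed the low-count filter in all 6 libraries. At an unadjusted edgeR p under 0.05 stood 7 of the 28, where 9.66% of all tested genes did. Of these 7, Srebf2, Sqle, Fdft1 and Pmvk were higher and Abca1, Abcg1 and Nr1h3 lower in G643W. DESeq2 called 1 of the 28, Abca1 (adjusted p = 0.00106), and 0.883% of the 43606 genes to which it gave a p-value. Some of these, with low counts, got no adjusted p and could not be called, so this share does not compare directly with that of edgeR.

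Groups did not overlap in CPM (reads scaled to library size by the TMM method) for 8 of the 28 genes, against 15.9% of all tested genes. In 5 of them all G643W values were above all WT values (7.05% of all tested genes), and in 3 they were below (8.89%). The plot of log2 fold changes shows the 3 exporter and receptor genes on the left and Sqle, Fdft1 and Srebf2 furthest to the right.

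**Figure D1:**
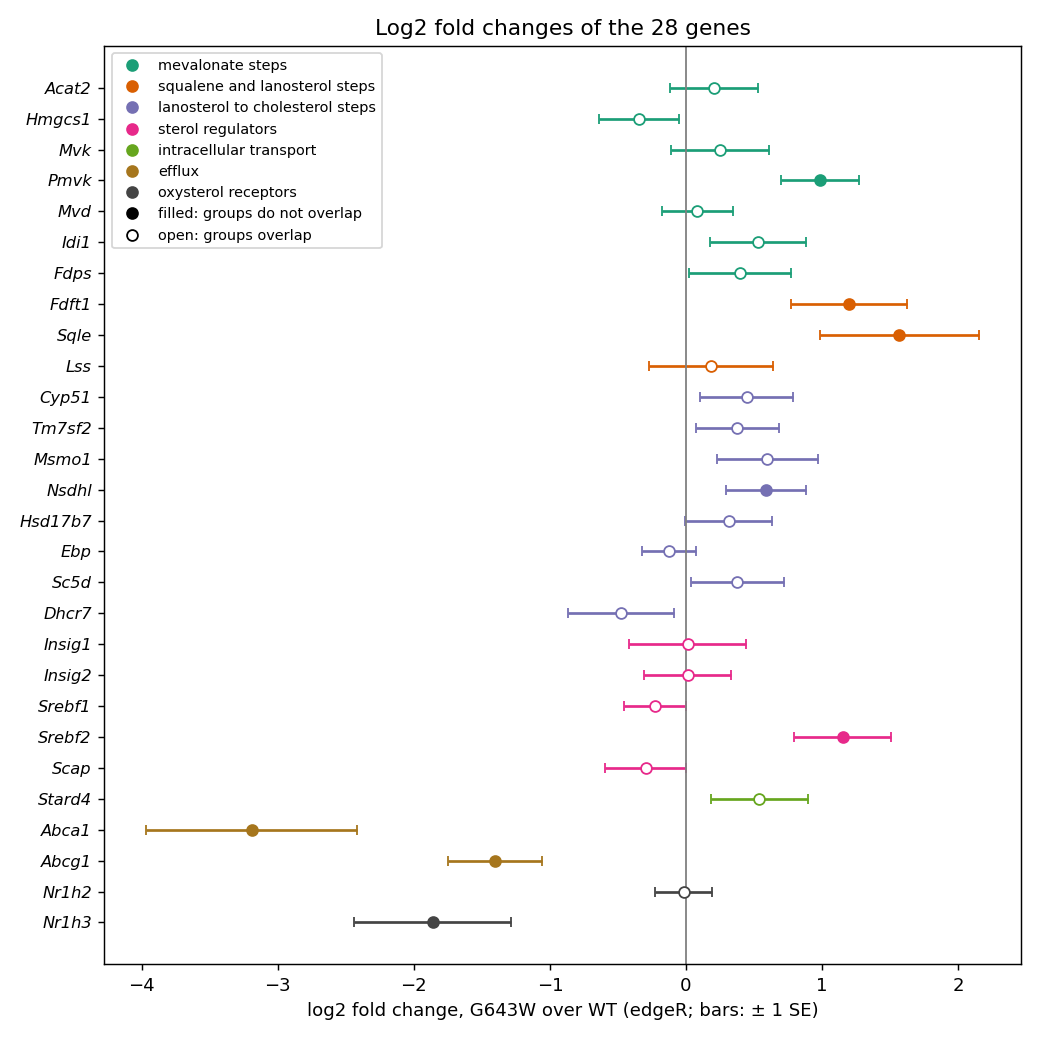
Log2 fold change of each of the 28 genes, G643W over WT (x axis, edgeR, bars ± 1 SE), ordered by role from top to bottom and coloured by role. Filled points mark the 8 genes whose groups did not overlap in CPM; they run from -3.19 for Abca1 to 1.57 for Sqle, and no gene passed the adjusted threshold.

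Among the 18 synthesis enzymes, 15 had a log2 difference above 0 and 3 below it. Their median was 0.38, and over all tested genes the median was -0.01 and 49.2% were positive. Without 1 library the median ranged from 0.25 (without WT library 1) to 0.51 (without WT library 2). The enzymes were read from the same libraries and are not independent of each other. WT library 1 had the lowest CPM of all 6 libraries for 11 of the 18 enzymes, and G643W library 1 the highest for 8. Averaged over the 18 enzymes, log2 CPM relative to all libraries was 0.36, 0.25 and 0.0042 in G643W libraries 1 to 3 and -0.51, 0.10 and -0.21 in WT libraries 1 to 3, so WT library 2 lay above G643W library 3.

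Among the synthesis enzymes Sqle and Fdft1 had the largest log2 fold changes. Sqle, the squalene epoxidase and a rate-limiting step of the sterol branch (GRCm38 chromosome 15, 59315077 to 59331192, plus strand), had 51.1, 39.5 and 29.1 CPM in G643W and 3.93, 14.4 and 22.0 CPM in WT. Every G643W library exceeded every WT library, and WT library 1 was the lowest by a wide margin. The log2 fold change of Sqle was 1.57 ± 0.58 (SE, edgeR adjusted p = 0.498), and 1.13 to 2.19 with 1 library left out. Fdft1, the squalene synthase (chromosome 14, 63145150 to 63179578, minus strand), had 19.6, 46.3 and 20.8 CPM in G643W and 8.45, 16.4 and 12.96 CPM in WT. G643W library 2 stood above the rest, and the groups did not overlap (log2 fold change 1.20 ± 0.43, edgeR adjusted p = 0.493). Fdft1 shares 774 of its 4227 exon bases with Ctsb on the opposite strand, a cathepsin gene at 476 CPM in G643W and 487 CPM in WT, so reads from those bases cannot be told apart without strand. Lss, which closes the ring to lanosterol, had 13.8, 5.36 and 6.49 CPM in G643W and 8.76, 8.62 and 5.27 CPM in WT, and the groups overlapped (log2 fold change 0.18, 95% interval -0.89 to 1.26).

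Of the 7 mevalonate steps, Pmvk was alone in having groups without overlap. Pmvk, the phosphomevalonate kinase (chromosome 3, 89454541 to 89469013, plus strand), had 14.2, 21.9 and 14.2 CPM in G643W and 8.30, 8.69 and 8.39 CPM in WT. All 3 WT libraries sat close together and below every G643W library, with a log2 fold change of 0.99 ± 0.29 (SE, edgeR adjusted p = 0.462). Idi1, which isomerises isopentenyl diphosphate, had 27.5 to 33.6 CPM in G643W and 12.6 to 32.4 CPM in WT, and Fdps, the farnesyl diphosphate synthase, 64.3 to 125 CPM in G643W and 39.2 to 82.8 CPM in WT. Both groups of both genes overlapped. Mvk, the mevalonate kinase, had 7.77 to 12.7 CPM in G643W and 5.80 to 10.6 CPM in WT, and Mvd, the mevalonate diphosphate decarboxylase, 19.2 ± 2.14 CPM in G643W and 18.1 ± 4.18 CPM in WT (SD, n = 3 each). Acat2, the cytosolic thiolase that joins acetyl-CoA units, had 12.1 to 21.5 CPM in G643W and 10.8 to 15.98 CPM in WT. Hmgcs1, the cytosolic HMG-CoA synthase, went against the other mevalonate genes, with 34.7, 44.1 and 32.2 CPM in G643W and 47.9, 62.5 and 30.7 CPM in WT. Its log2 fold change was -0.35 ± 0.29 (SE, 95% interval -1.04 to 0.35, edgeR adjusted p = 0.659), and the groups overlapped.

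Of the 8 enzymes from lanosterol to cholesterol, only Nsdhl had groups without overlap. Nsdhl, a sterol dehydrogenase that helps strip methyl groups from the ring (chromosome X, 72918557 to 72958514, plus strand), had 16.9, 13.1 and 10.8 CPM in G643W and 8.28, 10.5 and 8.29 CPM in WT. G643W library 3 and WT library 2 were nearly level, and the log2 fold change was 0.59 ± 0.29 (SE, edgeR adjusted p = 0.539). Its partners in that step were Msmo1, the methyl sterol oxidase, at 25.6 to 41.7 CPM in G643W and 13.6 to 32.9 CPM in WT, and Hsd17b7, the keto-sterol reductase, at 6.32 to 9.40 CPM in G643W and 5.75 to 7.33 CPM in WT. Cyp51, the lanosterol demethylase, had 15.8 to 25.4 CPM in G643W and 10.3 to 19.9 CPM in WT, and Tm7sf2, a sterol reductase, 10.5 to 12.02 CPM in G643W and 7.19 to 11.2 CPM in WT. Sc5d, the sterol desaturase, had 37.8 to 44.9 CPM in G643W and 17.5 to 43.7 CPM in WT, where the low value was WT library 1. These 5 genes had positive differences with overlapping groups. Ebp, the sterol isomerase, overlapped, at 36.8 to 38.9 CPM in G643W and 35.4 to 48.8 CPM in WT (log2 fold change -0.13, 95% interval -0.59 to 0.34). Dhcr7, the reductase of a last step, had 17.0, 7.70 and 10.3 CPM in G643W and 11.7, 21.04 and 15.8 CPM in WT. The 2 lowest Dhcr7 libraries were G643W libraries 2 and 3, and the log2 fold change was -0.48 ± 0.39 (SE, edgeR adjusted p = 0.646).

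**Figure D2:**
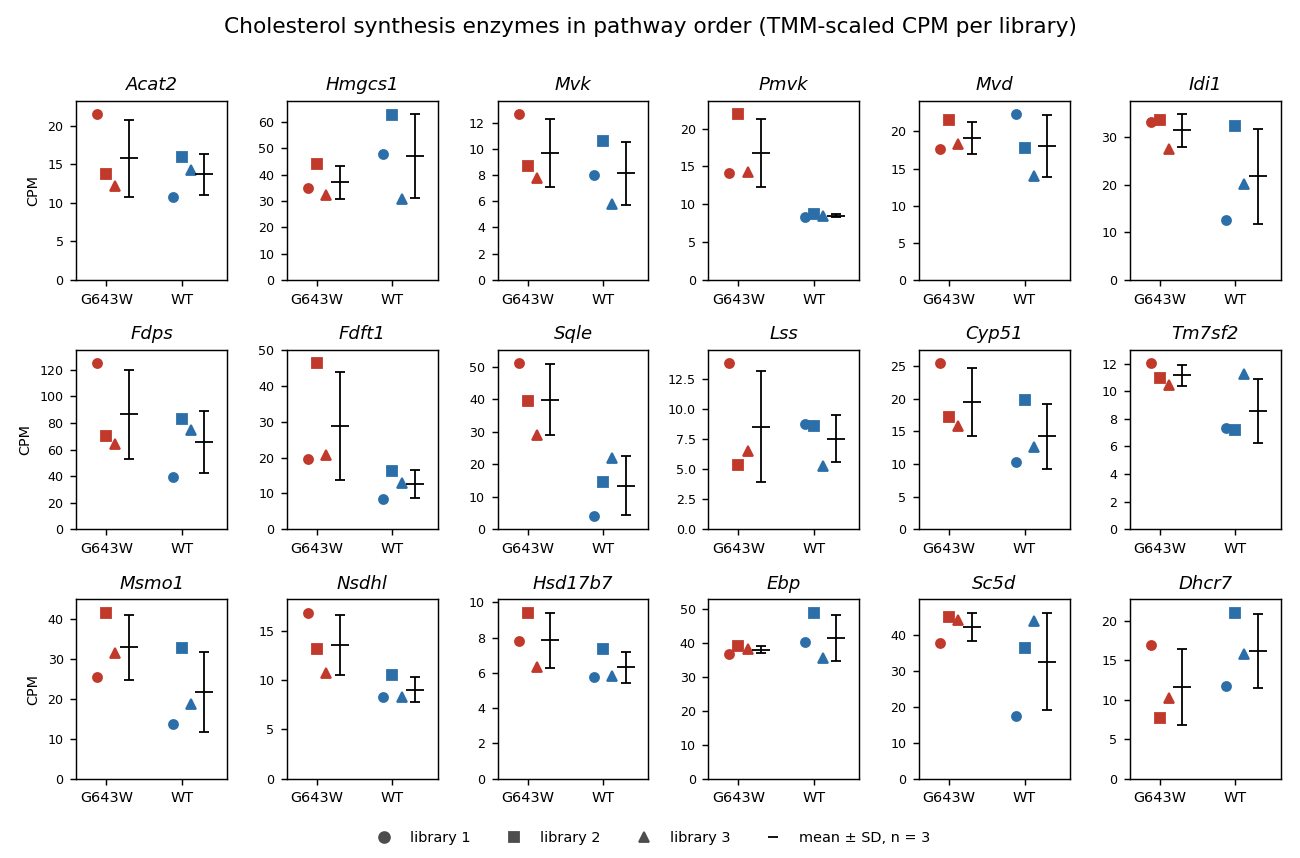
TMM-scaled CPM (y axis, from 0) of the 18 synthesis enzymes in pathway order, by genotype, with 1 marker shape per library number and the mean ± SD of 3 libraries beside each group. Pmvk, Fdft1, Sqle and Nsdhl have G643W libraries above all WT libraries, and WT library 1 (blue circles) is lowest of all 6 for 11 enzymes.

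Mitosis genes lay higher in the same libraries, with 0 of 16 called by edgeR and 1, Cenpe, by DESeq2 (adjusted p = 0.0235). DESeq2 called 0.883% of the genes to which it gave a p-value. At an unadjusted edgeR p under 0.05 stood 15 of the 16, against 9.66% of all tested genes. All 16 mitosis genes had positive log2 differences. For 13 of them all G643W values were above all WT values, against 7.05% of all tested genes. Their summed level was 706 to 924 TPM in G643W and 328 to 484 TPM in WT. Neutrophil genes summed to 38669, 219230 and 140630 TPM in G643W libraries 1 to 3 and 44654, 41326 and 92589 TPM in WT libraries 1 to 3, with 0 of 16 free of overlap, 0 called by edgeR and 1, Stfa2l1, by DESeq2 (adjusted p = 0.0033). Myeloid progenitor genes summed to 932 to 6238 TPM in G643W and 1096 to 4425 TPM in WT, mostly from granule genes such as Mpo. Of these 10 genes, 6 had positive and 4 negative log2 differences, with a median of 0.04. Within that list Flt3, a receptor of early progenitors, had 2.73, 1.67 and 6.48 CPM in G643W and 44.7, 27.1 and 17.5 CPM in WT (log2 fold change -3.04 ± 0.61 SE, edgeR adjusted p = 0.298, DESeq2 adjusted p = 0.000146). Cd34 was likewise lower without overlap, with a log2 fold change of -1.89 ± 0.57 (SE, edgeR adjusted p = 0.477), and the other 8 genes of the list overlapped. Of all tested genes, 8.89% lay lower without overlap. The part of these in the enzyme values was not tested, and in bulk libraries fewer cells of a type and less RNA per cell cannot be told apart.

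Of the 5 sterol regulators, Srebf2 was alone in having groups without overlap. Srebf2, whose product SREBP2 is the main activator of the cholesterol enzymes (chromosome 15, 82147181 to 82205379, plus strand), had 197, 242 and 197 CPM in G643W and 58.0, 83.1 and 146 CPM in WT. The G643W libraries were close to each other and all above WT library 3, the highest of a scattered WT group. The log2 fold change was 1.15 ± 0.35 (SE, 95% interval 0.32 to 1.98, edgeR adjusted p = 0.481), and 0.89 to 1.66 with 1 library left out. Its longest coding transcript, Srebf2-201 (5077 bases, 19 exons), held 84.5% of the gene's reads and showed the same split, with 16.4, 16.7 and 15.4 TPM in G643W and 4.27, 5.44 and 11.3 TPM in WT.

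The partners of Srebf2 overlapped between genotypes. Srebf1, whose product mainly drives fatty acid genes, had 78.1, 51.1 and 62.4 CPM in G643W and 67.1, 71.2 and 86.3 CPM in WT (log2 fold change -0.23, 95% interval -0.76 to 0.30). Scap, the escort protein, had 61.2, 29.1 and 41.4 CPM in G643W and 45.4, 55.6 and 60.6 CPM in WT (log2 fold change -0.30, 95% interval -1.002 to 0.41). In both, G643W library 2 had the lowest value. Insig1, itself an SREBP target that retains Scap, had 55.8, 24.5 and 20.5 CPM in G643W and 39.8, 37.3 and 22.9 CPM in WT, with G643W library 1 far above its group (log2 fold change 0.01, 95% interval -0.996 to 1.02). Insig2, its relative, had 9.40 to 16.5 CPM in G643W and 11.03 to 16.5 CPM in WT (log2 fold change 0.01, 95% interval -0.74 to 0.77). These intervals allow changes near 2-fold in either direction for Insig1. Stard4, a cytosolic sterol carrier, had 49.0, 42.7 and 34.8 CPM in G643W and 15.2, 36.4 and 35.4 CPM in WT, where only WT library 1 stood apart (log2 fold change 0.54 ± 0.36 SE, edgeR adjusted p = 0.592).

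**Figure D3:**
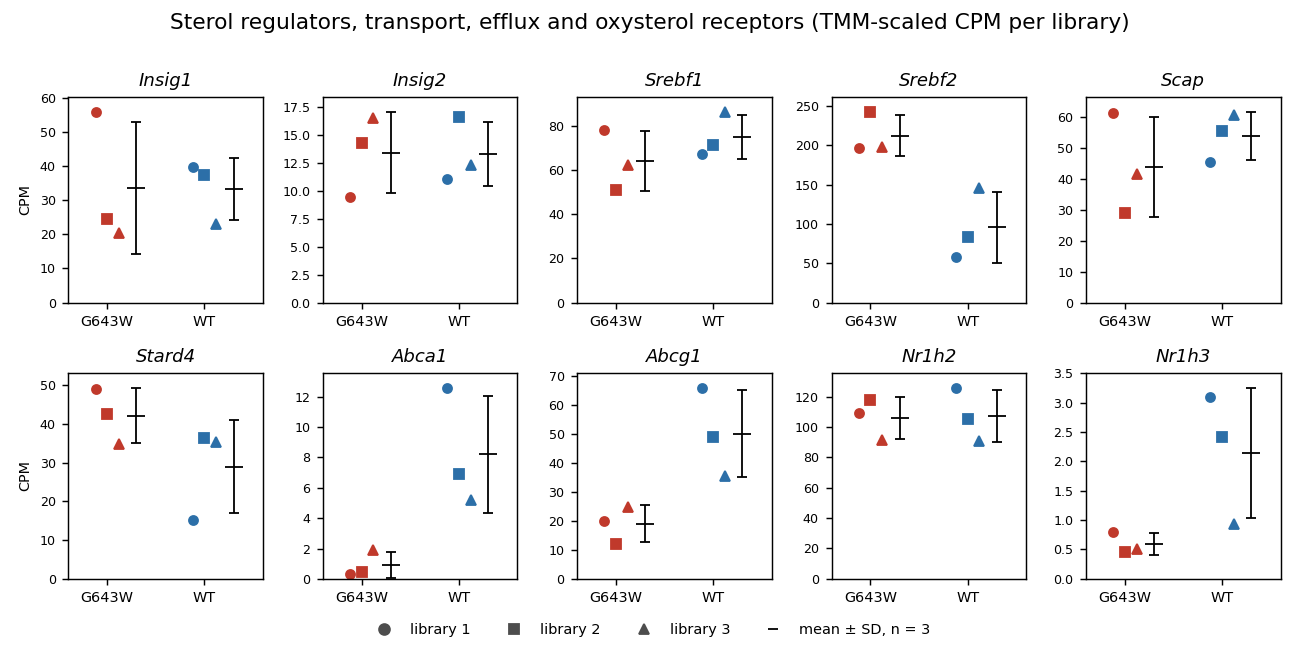
TMM-scaled CPM (y axis, from 0) of the 10 genes of sterol sensing, transport, efflux and oxysterol receptors, by genotype, with 1 marker shape per library number and the mean ± SD of 3 libraries. Srebf2 has all G643W libraries at 197 CPM or more and all WT libraries at 146 CPM or less, while Abca1, Abcg1 and Nr1h3 have the reverse order.

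Start regions of Srebf2 and of 2 mevalonate enzymes with opposite signs, Hmgcs1 and Pmvk, are printed, since SREBP2 is known to act at such regions. RefSeq windows (GRCm38.p6, from 250 bases before to 50 after a start) existed for 23 of the 28 genes. Fdps, Fdft1, Sqle, Stard4 and Abcg1 had none and were not searched. Bases that GENCODE M21 annotates as exon are not printed. Capitals mark CACNCCAC (sterol regulatory element core), TCACNCCA (a shifted form of it, added after the windows had been seen), CCAAT (the NF-Y box), the E-box CACGTG and the LXR half-site pair, which is GGTNA, any 5 bases and GGTNA again, each on either strand. The windows run 5′ to 3′ on the gene's strand and are chr15:82147019-82147180 for Srebf2, chr13:119690101-119690350 for Hmgcs1 and chr3:89454291-89454540 for the outer RefSeq start of Pmvk, all on the plus strand. Pmvk also has an inner RefSeq start, which is not printed.
Srebf2: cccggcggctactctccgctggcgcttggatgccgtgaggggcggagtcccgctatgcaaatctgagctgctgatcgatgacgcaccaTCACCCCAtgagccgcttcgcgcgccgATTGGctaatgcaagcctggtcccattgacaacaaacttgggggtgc
Hmgcs1: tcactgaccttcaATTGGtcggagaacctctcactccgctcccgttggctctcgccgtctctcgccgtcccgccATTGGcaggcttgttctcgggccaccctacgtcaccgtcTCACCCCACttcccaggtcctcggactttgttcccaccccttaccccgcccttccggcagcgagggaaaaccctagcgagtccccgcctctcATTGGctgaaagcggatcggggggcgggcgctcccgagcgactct
Pmvk: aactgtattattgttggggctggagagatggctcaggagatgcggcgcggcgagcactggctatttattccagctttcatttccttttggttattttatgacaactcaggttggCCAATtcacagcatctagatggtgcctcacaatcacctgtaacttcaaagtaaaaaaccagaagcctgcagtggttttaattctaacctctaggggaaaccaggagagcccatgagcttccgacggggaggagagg

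The shifted element begins at position -162 in Srebf2 and -137 in Hmgcs1, counted from the RefSeq start. In Hmgcs1 it overlaps the element core at -136, and no other pair of different motifs overlapped in these windows. Over the whole windows, the core was found in 3 of the 23 genes (Acat2, Hmgcs1 and Insig1), against 7.12% of all genes with a window. The shifted form was found in 3 of the 23 (Hmgcs1, Msmo1 and Srebf2), against 4.97% of all genes. The CCAAT box was found in 18 of the 23 (41.1% of all genes), the GC box GGGCGG in 20 (38.2%) and the E-box in 6 (8.09%). Hmgcs1, with both forms of the element, had a negative log2 difference (-0.35). The other genes with a form of it had positive ones, at 0.21 for Acat2, 0.01 for Insig1, 0.60 for Msmo1 and 1.15 for Srebf2. Pmvk, with neither form in the window of its outer or inner start, also had a positive one (0.99). These matches are letters in a window, not measured binding.

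Both exporters lay lower in G643W blasts, and Abca1 had the largest log2 difference of the 28 genes. Abca1, which exports cholesterol to lipid-poor apolipoprotein particles (chromosome 4, 53030787 to 53159895, minus strand), had 0.351, 0.472 and 1.87 CPM in G643W and 12.6, 6.91 and 5.19 CPM in WT. Behind these values stood 24, 42 and 139 estimated reads in G643W and 956, 488 and 391 in WT. The groups were far apart, and within G643W library 3 stood above the other two. The log2 fold change of Abca1 was -3.19 ± 0.78 (SE, 95% interval -5.02 to -1.36, edgeR adjusted p = 0.409), and -4.31 to -2.74 with 1 library left out. Abcg1, which exports cholesterol to high-density lipoprotein (chromosome 17, 31057675 to 31117988, plus strand), had 19.8, 12.2 and 24.8 CPM in G643W and 65.8, 49.0 and 35.6 CPM in WT. No G643W library reached the lowest WT library, and the log2 fold change was -1.40 ± 0.35 (SE, 95% interval -2.22 to -0.59, edgeR adjusted p = 0.409). Each transporter was read almost wholly from 1 coding transcript, Abca1-201 (10262 bases, 99.6% of reads) and Abcg1-201 (3610 bases, 99.8% of reads).

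The LXR receptor genes split. Nr1h3, encoding LXRα, the form restricted to tissues with high sterol traffic (chromosome 2, 91184061 to 91202834, minus strand), had 0.804, 0.449 and 0.512 CPM in G643W and 3.09, 2.41 and 0.930 CPM in WT. All G643W libraries lay below WT library 3, although the gap to it was small, and the log2 fold change was -1.86 ± 0.58 (SE, edgeR adjusted p = 0.484). Only 55, 40 and 38 estimated reads in G643W and 235, 170 and 70 in WT carried Nr1h3. Nr1h2, encoding the broadly expressed LXRβ, overlapped, at 109, 118 and 91.1 CPM in G643W and 126, 105 and 90.9 CPM in WT (log2 fold change -0.02, 95% interval -0.52 to 0.48). Its CPM was far above that of Nr1h3 in every library, though CPM does not allow for transcript length.

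Start regions of Abca1 and Srebf1 are shown because both are known LXR targets, and their groups stood apart for Abca1 and overlapped for Srebf1. The Srebf1 values are gene totals over 12 transcripts, and transcripts from the start printed here were not examined apart. In the 23 genes with a window the LXR half-site pair was found only in Abca1 and Srebf1, against 0.818% of all genes with a window. The other exporter gene, Abcg1, had no window and was not searched. The printed bases are chr4:53159896-53160145 for Abca1 and chr11:60210472-60210721 for the innermost RefSeq start of Srebf1, both on the minus strand and 5′ to 3′ on it, with capitals as above.
Abca1: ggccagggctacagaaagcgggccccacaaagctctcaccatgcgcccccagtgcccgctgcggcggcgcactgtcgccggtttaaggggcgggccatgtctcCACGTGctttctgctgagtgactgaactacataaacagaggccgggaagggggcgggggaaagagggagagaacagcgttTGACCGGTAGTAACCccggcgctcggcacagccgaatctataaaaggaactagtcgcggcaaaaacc
Srebf1: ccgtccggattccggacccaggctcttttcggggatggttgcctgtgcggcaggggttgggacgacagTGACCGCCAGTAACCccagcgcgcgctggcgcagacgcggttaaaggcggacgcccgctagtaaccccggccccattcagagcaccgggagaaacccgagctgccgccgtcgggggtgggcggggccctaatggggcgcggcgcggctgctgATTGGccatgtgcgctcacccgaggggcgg

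The pair begins at position -67 in Abca1 and at -182 in Srebf1, in the same orientation. The other capital run is an E-box in Abca1 and a CCAAT box in Srebf1.

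Monocytes and macrophages are known to express both exporters, so their markers are given beside them. All 11 monocyte genes had negative log2 differences with 0 called by edgeR and 2 by DESeq2, F13a1 (adjusted p = 0.026) and Irf8 (adjusted p = 0.0485). DESeq2 called 0.883% of the genes to which it gave a p-value. At an unadjusted edgeR p under 0.05 stood 7 of the 11, against 9.66% of all tested genes. For 5 all G643W values were under all WT values, against 8.89% of all tested genes. The summed level of the 11 was 464, 136 and 401 TPM in G643W libraries 1 to 3 and 1367, 921 and 524 TPM in WT libraries 1 to 3. Their highest sum was in WT library 1, which also had the highest Abca1 and Abcg1. Of the 11 tested macrophage genes, 9 had negative differences and 0 were free of overlap, and the 12 listed summed to 115, 105 and 198 TPM in G643W and 232, 128 and 124 TPM in WT. No gene of the monocyte or macrophage list was at 0 in all libraries, and 4 macrophage genes stayed under 1 TPM in all of them. C1qa, a macrophage complement gene with the most negative log2 fold change of its list (-3.16), had 0.687, 0.313 and 3.51 TPM in G643W and 30.9, 4.38 and 1.69 TPM in WT. Other macrophage genes lay near 0, such as Adgre1 (-0.06) and Mrc1 (-0.12), and 2 were positive, Cd5l (0.58) and Hmox1 (0.14). Without WT library 1, where C1qa and both the monocyte and macrophage sums were highest, the log2 fold changes were -2.76 for Abca1, -1.16 for Abcg1 and -1.51 for Nr1h3. The part of monocyte, macrophage or progenitor RNA in these differences was not tested.

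**Figure D4:**
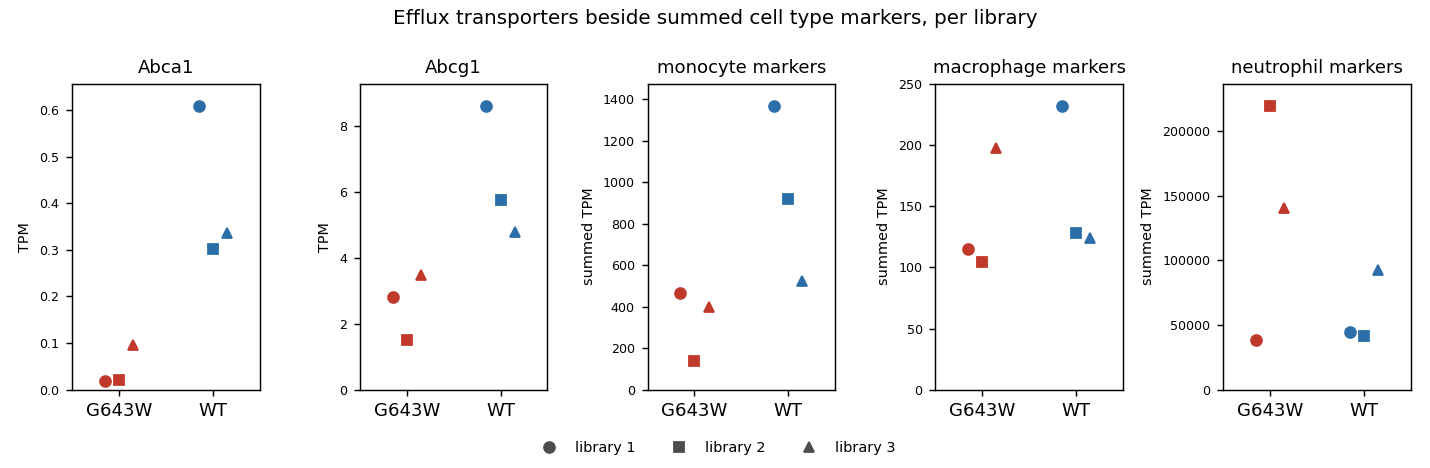
TPM of Abca1 and Abcg1 and summed TPM of the monocyte (11 genes), macrophage (12 genes) and neutrophil (16 genes) lists per library (y axes, linear from 0), by genotype, with 1 marker shape per library number. The exporters and the monocyte sum have no overlap between genotypes, whereas the macrophage and neutrophil sums overlap.

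Genes outside the set but next to it in the pathway were followed through 6 lists. Of 81 listed genes, 75 were tested and 0 were called in either direction (edgeR, where 0.121% of all genes were called). An unadjusted edgeR p under 0.05 was found for 6 of the 75, or 8.0%, which is near the 9.66% of all tested genes. DESeq2 called 1 of them, Soat2, against 0.883% of the genes to which it gave a p-value. The pathway genes named are those with the lowest p of each list. Soat2, an acyltransferase that stores cholesterol as esters, had 2.56, 1.85 and 4.55 CPM in G643W and 14.1, 11.3 and 5.88 CPM in WT, without overlap (log2 fold change -1.80 ± 0.50 SE, edgeR adjusted p = 0.454, DESeq2 adjusted p = 0.0429). Its list of 16 tested sterol-handling genes had a median log2 difference of 0.02, with 8 positive and 8 negative. Pltp, a phospholipid transfer protein and LXR target, had 0.833, 0.315 and 3.64 CPM in G643W and 147, 8.07 and 1.30 CPM in WT, so 1 library, WT library 1, set its size. The log2 fold change of Pltp was -5.03 ± 1.82 (SE, edgeR adjusted p = 0.493) and -1.56 without that library. The 10 tested LXR partners and targets had 2 positive and 8 negative differences, with a median of -0.25.

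The 15 tested fatty acid targets of SREBP had 7 positive and 8 negative log2 differences, and their median was -0.21. Acss2, which makes acetyl-CoA from acetate, had 4.87, 28.7 and 22.4 CPM in G643W and 9.15, 2.76 and 2.09 CPM in WT, so G643W library 1 overlapped WT (log2 fold change 2.00 ± 0.80 SE, edgeR adjusted p = 0.509). Lipoprotein receptors numbered 4 positive and 4 negative with a median of -0.04, led by Lrp8 at 36.0, 42.0 and 51.3 CPM in G643W and 21.04, 22.1 and 37.8 CPM in WT. The isoprenoid branch had 5 positive and 9 negative differences with a median of -0.17. Its leading gene Ggps1, the geranylgeranyl diphosphate synthase that draws on the product of Fdps, had 14.5, 15.6 and 16.1 CPM in G643W and 22.5, 26.5 and 17.9 CPM in WT. SREBP processing genes had 4 positive and 8 negative differences with a median of -0.14, led by Rnf139, a sterol-sensing ubiquitin ligase, at 49.3, 74.6 and 66.2 CPM in G643W and 43.3, 42.2 and 52.8 CPM in WT.

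Levels between genes depend on how short annotated fragments are counted. TPM divides by transcript length, so a fragment with few reads can carry most of a gene's TPM. For 10 of the 28 genes, transcripts under 1000 bases held over 50% of the gene's TPM, and for 0 of them over 50% of its reads. Dhcr7 is the clearest case among the enzymes: Dhcr7-213, of 230 bases, held 76.9% of the TPM but 3.22% of the reads. By gene TPM Dhcr7 had 28.1, 4.78 and 18.3 in G643W and 12.7, 25.1 and 28.4 in WT, whereas the coding transcript Dhcr7-202 had 2.71, 1.07 and 1.65 TPM in G643W and 1.95, 2.95 and 2.03 TPM in WT. Insig2-209, of 204 bases, held 58.7% of the TPM of Insig2 from 2.77% of its reads. In Nr1h2 a retained-intron fragment of 237 bases held 33.0% of TPM from 1.23% of reads. In Lss a fragment of 352 bases held 43.0% of TPM from 3.16% of reads, and in Nr1h3 one of 378 bases held 54.7% of TPM from 9.13% of reads. By the transcript with the most reads, Fdps-201 had the highest enzyme level in 5 of 6 libraries, at 32.4, 14.7 and 15.1 TPM in G643W and 9.30, 18.5 and 17.6 TPM in WT. In WT library 1 Ebp-202 was higher, at 12.6 TPM, but it is a retained-intron transcript of 1034 bases. The longest coding transcript of that gene, Ebp-201, had 1.93 TPM in WT library 1. Lss-201 stayed under 0.7 TPM in all 6 libraries.

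**Figure D5:**
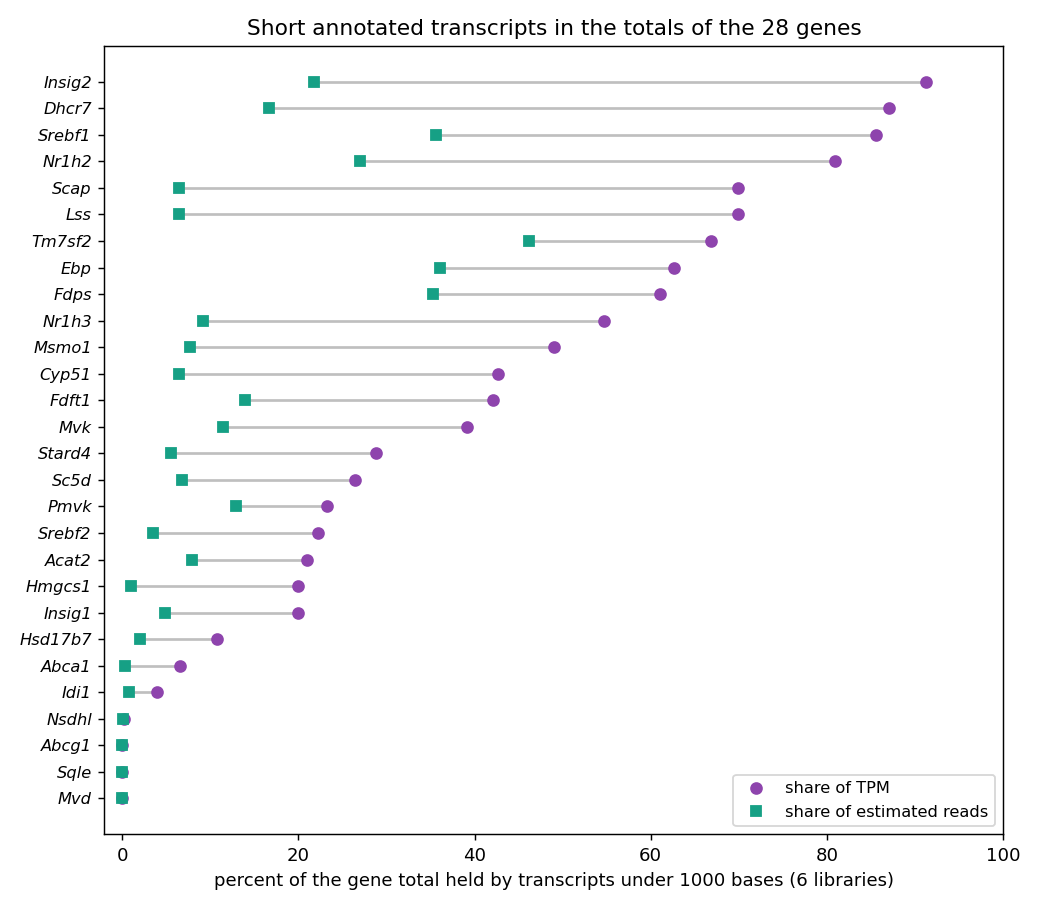
Share of each gene's total (x axis, percent, over 6 libraries) that annotated transcripts under 1000 bases held, by TPM (purple circles) and by estimated reads (green squares), with genes ordered by the TPM share. Insig2, Dhcr7, Srebf1 and Nr1h2 have the largest TPM shares, while Mvd, Sqle, Abcg1 and Nsdhl have almost none by either measure.

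Near-identical copies touched 2 of the 28 genes. Acat2 is 97.6% identical to Acat3 over 69.1% of its transcript, and at least 91.7% of their summed TPM was given to Acat2 in every library. Fdps has 5 such copies, and at least 99.7% of the summed TPM was given to Fdps.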

How the data were processed

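RNA was measured by sequencing in 6 libraries, 3 per genotype. The authors deposited estimated counts and TPM per transcript; per the submitters' processing notes these came from Salmon 0.12.0 after bcl2fastq, with builds mm10 and GRCm38.p6. The sources used here name no Salmon options, index or strand setting. Of 136288 transcripts per file, 136176 matched GENCODE M21 and were summed over 53458 genes; the rest held at most 0.0365% of reads. A symbol on several entries went to the one with the most reads.

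Estimated counts were rounded. Genes were filtered by filterByExpr at a minimum count of 10, and edgeR 4.0.16 in R 4.3.3 gave TMM factors and the test (glmQLFTest on genotype alone, two-sided, Benjamini-Hochberg over 20654 genes, threshold 0.05). SE is the absolute log2 fold change over the square root of F; intervals are 95%. Mean log2 CPM used a pseudocount of 0.5. Copies came from BLAST+ 2.17.0 (at least 95% identity over 50% of length, same strand). The steps were tested on simulated data. Alternatives used limma 3.58.1, DESeq2 1.42.0, other scaling, filters and units, and each library left out. Library pairs differed beyond sampling noise, so each counted as 1 sample. Depth ranged from 61167075 to 101189225 estimated reads; its limit is counting error for Abca1 and Nr1h3.

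The members and lists were chosen with earlier results of these data known. Named genes were all 28, Asxl1 and, of each pathway list, genes past the threshold or else the one with the lowest p; cell type markers are named outside this rule and were chosen after their values were seen. Faxdc2, on a list, had no entry under that symbol. Other genes of cholesterol metabolism were not analysed here.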

Additional observations from a re-analysis of the deposited data

How the results depend on the processing

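Over 18 alternatives, 1 of them (copies summed with their gene) added after the data had been seen, members called stayed at 0 except for 1 with DESeq2, and listed pathway genes called at 0 except for 1 with DESeq2. The count of 25 genes called over the whole table moved to 16 without a scaling factor, 104 without a filter, 10 with length-scaled counts, 13 with the most-read transcript only, 385 with DESeq2, 66 with limma on log2(TPM + 0.1) and 2 on protein-coding genes alone. With 1 library left out it ranged from 0 (without WT library 2, where 1277 genes had an unadjusted edgeR p under 0.05) to 16 (without G643W library 1), and was 6 and 3 without G643W libraries 2 and 3 and 5 and 15 without WT libraries 1 and 3. Members called were 0 in each. The replicate numbers did not pair the samples. Deviations of log2 CPM from the group means correlated at 0.11, -0.16 and 0.18 between same-numbered libraries, and from -0.28 to 0.23 between differently numbered ones. With the replicate block 0 genes were called (1772 at an unadjusted edgeR p under 0.05). Direction reversed for 8 of the 28 members, all with overlapping groups. Mvk was -0.015 with length-scaled counts; Lss was -0.28 with length-scaled counts, -0.37 with limma on log2(TPM + 1) and -0.67 on log2(TPM + 0.1). Insig1 was -0.093 and Insig2 -0.0051 with the replicate block, and Insig2 -0.051 without a scaling factor. With limma on log2(TPM + 1) and log2(TPM + 0.1), Srebf1 was 0.029 and 0.030 and Nr1h2 0.062 and 0.063. Nr1h2 was 0.055 with at least 1 CPM in 3 libraries and 0.064 on protein-coding genes alone. With 1 library left out, Mvd ranged from -0.0083 to 0.26, Lss from -0.26 to 0.43, Ebp from -0.16 to 0.049, Insig1 from -0.48 to 0.27, Insig2 from -0.17 to 0.30 and Nr1h2 from -0.10 to 0.11. The cause was not tested. The other 20 members, the 5 higher and 3 lower genes without overlap among them, kept their direction in every alternative. Depth limits Abca1 and Nr1h3, whose G643W libraries held 24 to 139 and 38 to 55 estimated reads.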
